A study of Mus musculus with 6 samples.

Results

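Chd4 promoters found only in iKO neural stem cells were 428 promoter peaks of 423 protein-coding genes. They were chosen by the readout itself. A gene entered the set when the Chd4 iKO list held a peak within 1000 bp of its nearest transcription start site and the Chd4 lists of siSeh1, siSCR and Ctrl held none named for that gene. The iKO list had 21294 peaks, of which 1155 lay at promoters of 1138 protein-coding genes by the same distance. The set thus held 428 of 1155 iKO promoter peaks and 423 of 1138 genes. Of 21896 protein-coding genes in RefSeq, 1.93% met the rule. Promoter peaks were listed for 5.2% of them in iKO, 11.9% in siSeh1, 1.64% in siSCR and 0.0183% in Ctrl. These shares describe what the rule selected, and nothing is read from them.

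The libraries came from primary neural stem cells of the cortex of newborn mice, kept proliferating in medium with EGF and bFGF. Chd4 was immunoprecipitated from iKO cells (genotype mutant, treated with 4-OH-TAM), and from siSeh1, siSCR and Ctrl cells, all labelled wild type and kept in growth medium. Seh1 was profiled through a flag tag in cells titled iKO but labelled wild type and treated with 4-OH-TAM, and directly in Ctrl cells of wild type genotype in growth medium. The labels spell out neither iKO nor the si names. The series title speaks of Seh1 deletion, which is how iKO is taken here, with siSeh1 taken as silencing of Seh1 and siSCR as the matching control. Neither the driver of the deletion nor the number of animals is given in the sources used here. With 1 library per group, the differences reported are between libraries and have no replicate check and no test. The siSeh1 list had 26935 peaks, siSCR 2606, Ctrl 1154, Seh1-flag 24961 and Seh1 Ctrl 20833. Depth per library is unknown, and the 4 Chd4 lists differ widely in length. Neither Seh1l, which encodes Seh1, nor Chd4 had a promoter peak in any of the 6 lists, so the peaks leave the genotype and treatment labels unchecked. A peak list holds no expression, so the labelled cell type could not be checked either.

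Chd4 is the ATPase of the NuRD complex, which couples nucleosome remodelling to histone deacetylation and binds many CpG-rich promoters and enhancers. In neural progenitors NuRD is known for restraining genes of other lineages and for timing differentiation. Seh1 is a nucleoporin of the Y complex of the nuclear pore and also a subunit of the GATOR complex that senses amino acids. Many CpG-rich promoters hold a CCAAT box, the site of the factor NF-Y, a short distance before the start, and a share of them serve a pair of genes transcribed in opposite directions.

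The promoters below belong to the 6 genes of highest iKO score whose summit, the single base at which a peak is centred, fell inside the RefSeq promoter (250 bases before to 50 after the start, GRCm38.p6, the assembly of mm10). They are shown because 4 of the 6 (Kdm4d, Ubxn6, Dnajb11 and Immp1l) had a siSeh1 summit within 122 bp of the iKO summit that the annotation had named for the neighbouring gene, while the nearest was 27542 bp away at Ift22 and 57044 bp away at Mllt1. Each runs in the direction of its gene, 5′ to 3′. Capitals mark CCAAT boxes, written CCAAT on the printed strand and ATTGG where the box lies on the other strand.
Kdm4d (chr9:14500433-14500732, minus strand): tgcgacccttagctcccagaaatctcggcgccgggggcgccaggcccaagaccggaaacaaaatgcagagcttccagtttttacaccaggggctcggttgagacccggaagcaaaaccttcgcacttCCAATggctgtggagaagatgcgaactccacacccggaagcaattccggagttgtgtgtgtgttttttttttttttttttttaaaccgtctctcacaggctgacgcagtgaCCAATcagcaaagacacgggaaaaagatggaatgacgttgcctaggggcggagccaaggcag
Ift22 (chr5:136907900-136908199, plus strand): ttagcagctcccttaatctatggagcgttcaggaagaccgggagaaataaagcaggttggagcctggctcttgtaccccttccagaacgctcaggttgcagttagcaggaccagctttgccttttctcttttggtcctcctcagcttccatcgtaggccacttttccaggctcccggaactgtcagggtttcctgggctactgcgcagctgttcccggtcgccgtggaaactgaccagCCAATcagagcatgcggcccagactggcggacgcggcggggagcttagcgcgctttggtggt
Ubxn6 (chr17:56079284-56079583, minus strand): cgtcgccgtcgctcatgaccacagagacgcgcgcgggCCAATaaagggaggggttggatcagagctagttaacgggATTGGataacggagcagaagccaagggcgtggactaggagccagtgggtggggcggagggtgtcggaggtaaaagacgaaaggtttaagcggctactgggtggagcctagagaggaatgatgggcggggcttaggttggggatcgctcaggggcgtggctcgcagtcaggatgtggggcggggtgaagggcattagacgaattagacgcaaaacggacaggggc
Dnajb11 (chr16:22857595-22857894, plus strand): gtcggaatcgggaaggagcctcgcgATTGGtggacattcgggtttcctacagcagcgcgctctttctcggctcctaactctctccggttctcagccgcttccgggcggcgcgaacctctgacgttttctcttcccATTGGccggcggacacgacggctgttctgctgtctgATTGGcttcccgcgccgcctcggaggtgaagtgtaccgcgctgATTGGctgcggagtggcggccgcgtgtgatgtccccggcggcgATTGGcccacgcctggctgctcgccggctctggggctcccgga
Immp1l (chr2:105904388-105904687, plus strand): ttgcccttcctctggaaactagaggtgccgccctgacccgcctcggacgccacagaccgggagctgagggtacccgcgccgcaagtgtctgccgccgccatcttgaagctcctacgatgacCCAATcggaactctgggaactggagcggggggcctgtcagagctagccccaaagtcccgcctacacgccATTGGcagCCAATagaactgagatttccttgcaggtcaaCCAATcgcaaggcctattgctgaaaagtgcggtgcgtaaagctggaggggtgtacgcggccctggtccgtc
Mllt1 (chr17:56935339-56935638, minus strand): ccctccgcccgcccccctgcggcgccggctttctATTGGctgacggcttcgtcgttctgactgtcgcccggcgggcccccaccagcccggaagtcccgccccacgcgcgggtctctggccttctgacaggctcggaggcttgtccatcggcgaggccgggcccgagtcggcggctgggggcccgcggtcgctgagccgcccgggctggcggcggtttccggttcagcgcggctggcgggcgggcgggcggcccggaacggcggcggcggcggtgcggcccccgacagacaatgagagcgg

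All 6 promoters held at least 1 CCAAT box. A box was present in 39.0% of all protein-coding promoters and 62.4% of those of members within 200 bp of the start. The share was 72.4% of members with a score of at least 5 and 84.4% of iKO promoters also listed in another Chd4 list. Nothing is therefore read from a box in all 6. Dnajb11 had 5 and Immp1l 4, Kdm4d and Ubxn6 had 2 each, and Ift22 and Mllt1 had 1 each. The nearest box began 10 bases before the iKO summit at Ift22, 20 before at Kdm4d, 33 before at Ubxn6, 12 after at Dnajb11, 11 after at Immp1l and 104 before at Mllt1. The GC share of these sequences lay between 52.7% at Kdm4d and 77.7% at Mllt1. A match to these letters describes the window and does not show that a factor was bound.

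Members of the set fell into a sharp group at the start site and a broad, uneven group around it. A total of 214 peaks (50%, exact 95% interval 45.2 to 54.8%) lay within 200 bp of the start, 125 of them in the 200 bp before it and 89 in the 200 bp after it. The other 214 were spread over the remaining 8 bins of 200 bp, with 14 to 43 peaks in each. Between 1 and 3 kb from the start, on both sides, the same genes and other genes without a promoter peak in another Chd4 list had 13 to 32 iKO peaks per 200 bp, with a mean of 24. At that density the inner 2 bins would hold 48 peaks and the outer 8 bins 192, beside 214 and 214 observed. The bins from 200 to 600 bp after the start held 38 and 43 peaks, and the other 6 outer bins held 14 to 29. Of the 727 iKO promoter peaks of genes also listed in siSeh1, siSCR or Ctrl, 583 (80.2%, 77.1 to 83.0%) lay within 200 bp. Between 1 and 3 kb the density was nearly the same per gene in both. It was 1.25 iKO peaks per 200 bp per 1000 genes for the 19233 genes without a promoter peak in another Chd4 list. For the 2663 genes with one it was 1.18. Within 200 bp of the start the densities were 5.56 and 109 on the same scale. In the 8 outer bins within 1000 bp they were 1.39 and 6.76.

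**Figure D1:**
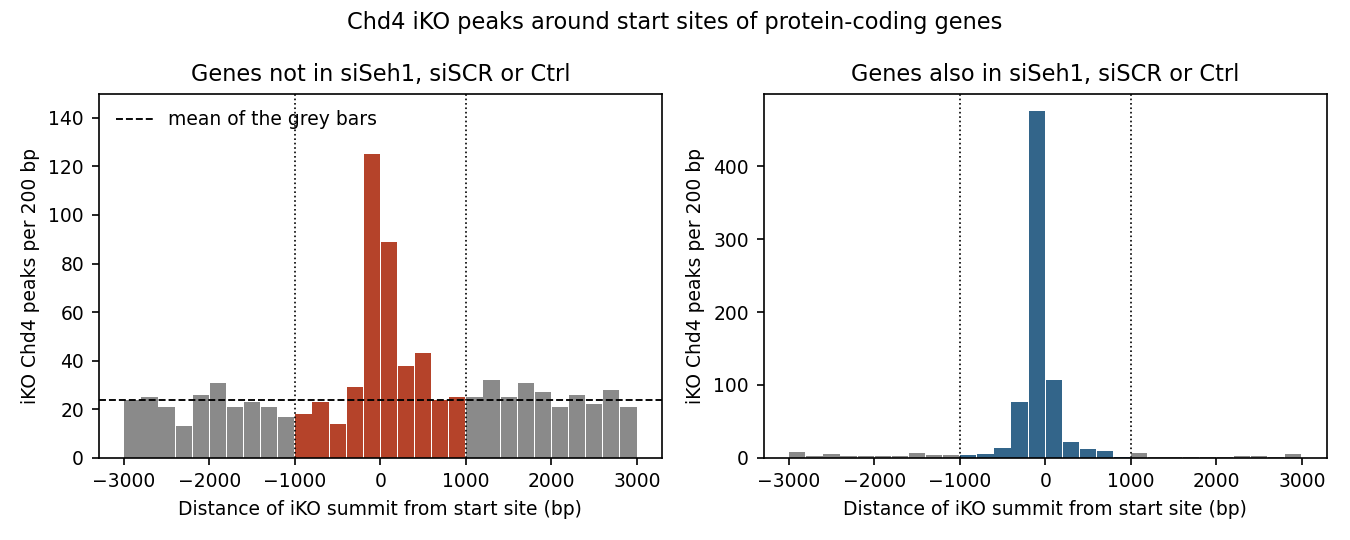
Number of Chd4 iKO peaks per 200 bp (vertical axis) against distance from the start site in bp (horizontal axis), for genes with no promoter peak in siSeh1, siSCR or Ctrl (left) and genes also listed in siSeh1, siSCR or Ctrl (right). Coloured bars lie within 1000 bp, grey bars beyond it, and the dashed line is the mean of the grey bars, 24 peaks per 200 bp; the left panel has 125 and 89 peaks in the bins beside the start, the right panel 476 and 107.

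The annotation classes are assigned by the position of the summit, so they partly restate the division by distance. HOMER placed 280 peaks of the set in its class around the start site (promoter-TSS, 65.4%), 80 in introns, 44 in exons, 17 in 5′ UTRs, 5 at transcription end sites, 1 in a 3′ UTR and 1 in a noncoding transcript. Exons and UTRs together held 62 of 428 peaks (14.5%, 11.3 to 18.2%), against 23 of 727 (3.16%, 2.02 to 4.71%) for the iKO promoter peaks of genes also listed elsewhere. Most of these were members farther than 200 bp from the start, where 46 of 214 (21.5%) lay in an exon or UTR, against 16 of 214 (7.48%) nearer the start. The promoter-TSS class still held 89 of the 214 members farther out (41.6%), so class and distance did not coincide. The share of the 727 was not divided by distance, so how far distance accounts for the contrast was not tested. The summit lay upstream of the start at 48.8% of peaks in the set and at 79.1% of those also listed elsewhere. A repeat was annotated at 13 member peaks, all of them beyond 200 bp, and at 1 of the others.

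The scale of the deposited peak score is not stated, and it was compared only within a list, here the iKO list. The median score was 3.80 in the set (95% interval 3.48 to 3.93, range 2.02 to 12.5), against 5.70 for the 727 iKO promoter peaks of genes also listed elsewhere (5.59 to 6.23, range 2.08 to 28.5). All iKO peaks together had a median of 3.39. Members within 200 bp of the start had a median of 3.93, and those farther out 3.39, the median of the whole iKO list. Many scores were tied, with 41 member peaks at 3.17 and 38 at 3.93.

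**Figure D2:**
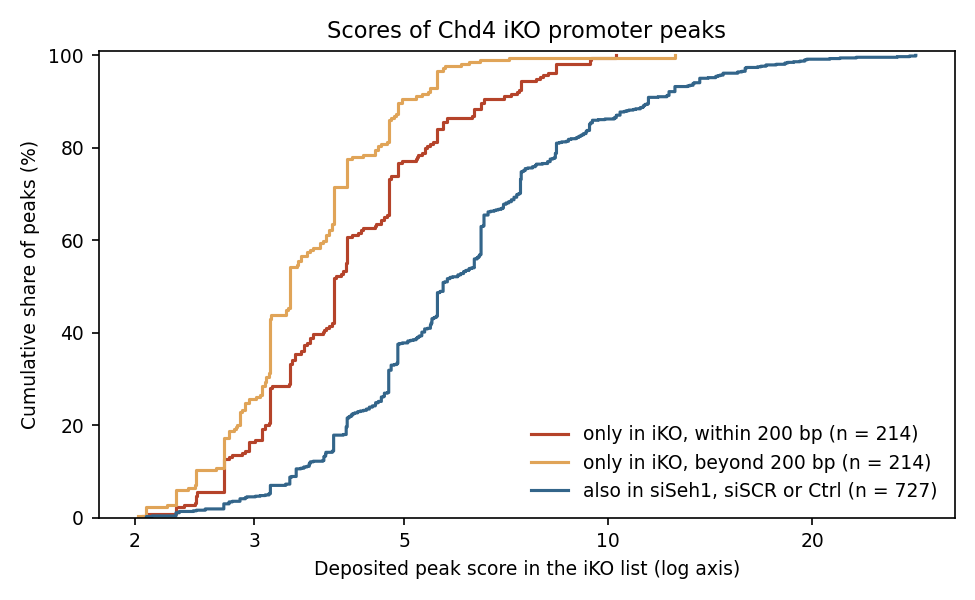
Cumulative share of iKO promoter peaks in percent (vertical axis) by deposited peak score (horizontal log axis) for 214 peaks only in iKO within 200 bp of the start, 214 peaks only in iKO beyond 200 bp, and 727 peaks of genes also listed in siSeh1, siSCR or Ctrl. The medians of the 3 curves are 3.93, 3.39 and 5.70, and the curve of the shared genes lies farthest to the right.

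When all 1155 iKO promoter peaks were divided into 5 quintiles by score, the set supplied 16 of 231 peaks (6.93%) in the top quintile, then 37 (16.0%), 77 (33.3%), 123 (53.2%) and 175 (75.8%) down to the lowest quintile. The part of these peaks that lay within 200 bp of the start was 93.8% in the top quintile (15 of 16), then 64.9%, 57.1%, 51.2% and 38.9%. A gene listed only in iKO was thus most often one with a low-scoring iKO peak, and its strongest members were nearly all at the start site itself. Score enters the rule through the call of each peak, so this is a description of the set.

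The highest score, 12.5, belonged to Gpx1, a glutathione peroxidase that reduces hydrogen peroxide, and it was the exception in position. Its summit lay at position 108340028 of chromosome 9, in exon 2 of 2 and 948 bp after the start, and a further peak of score 4.12 lay in the 5′ UTR 211 bp after the start. No siSeh1 summit lay closer than 44503 bp to the stronger peak, no siSCR summit closer than 176990 bp and no Ctrl summit closer than 1185861 bp. Of the 25 genes of highest score (3 genes tied for the last place), Gpx1 and Brwd1, a bromodomain protein with an intronic peak of score 7.13 located 922 bp after its start, were the members outside the promoter-TSS class. The other 23 had summits within 165 bp of the start. They included Ift22, an intraflagellar transport protein (9.38), Dctpp1, which hydrolyses dCTP (7.42), Sptssa, a small subunit of serine palmitoyltransferase (7.0), Dynll1, a dynein light chain (6.55), and Rnf122, a RING finger protein (6.55). The nearest siSeh1 summit was 27542 bp away at Ift22, 3608 bp at Dctpp1, 42115 bp at Sptssa, 13 bp at Dynll1 and 31856 bp at Rnf122.

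The members named next encode regulators of chromatin and transcription, and a list of remodellers and histone modifiers held 0 of 60. Kdm4d, a demethylase of histone H3 lysine 9, had a score of 9.42 with its summit 8 bp after the start, and siSeh1, siSCR and Ctrl summits lay 85, 80852 and 1460541 bp away. Mllt1, a subunit of the super elongation complex, had a score of 8.39 at 112 bp before the start, with the nearest siSeh1, siSCR and Ctrl summits 57044, 96564 and 1569404 bp away. Yaf2, a subunit of variant Polycomb complex 1, scored 7.93 at 2 bp before its start, with the other summits 50527, 1030089 and 2945994 bp away in the same order. Taf6l, a component of the SAGA coactivator, scored 7.44 and had siSeh1 and siSCR summits 15961 and 16017 bp away. Mllt1, Yaf2 and Taf6l therefore had no nearby peak in any other Chd4 list, whereas Kdm4d had a siSeh1 peak on the same promoter. Other members of this kind were Tasor2, a paralogue of the HUSH subunit TASOR (8.14), the retinoic acid receptor gene Rara (6.49), the cohesin subunit gene Stag1 (5.70), Sp3 (4.12), Ets1 (4.12), and Rcor1, which encodes the scaffold of the CoREST complex (3.75, intronic at 704 bp).

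Among members with a known role in cell division or DNA repair, 5 that were chosen after their values were seen had summits within 125 bp of the start. A list for cell cycle and mitosis held 1 member of 40 and one for DNA replication and repair 0 of 40, beside a background of 1.93%. Swi5, which acts in recombination repair, scored 8.39 at 125 bp before the start, with siSeh1, siSCR and Ctrl summits 61306, 1437283 and 4832350 bp away. Pms1, a mismatch repair protein, scored 7.83 at 6 bp before the start, with the same lists' nearest summits 97200, 672429 and 2402584 bp away. Oip5, which helps load CENP-A at centromeres, scored 5.24, Mad2l1, the spindle checkpoint protein, 4.74 and Prc1, which bundles midzone microtubules, 3.52, all within 88 bp of the start. None of these 5 genes had a siSeh1 summit within 13 kb, and the median distance over all member peaks was 28532 bp.

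Further members act in protein turnover and in mitochondria, and lists for the proteasome and ubiquitin enzymes and for the mitochondrial ribosome and respiratory chain held 2 of 60 and 2 of 62 genes, near the background of 1.93%. Ube2k, a ubiquitin-conjugating enzyme, scored 7.42 with the nearest siSeh1, siSCR and Ctrl summits at 101189, 113582 and 96860 bp, and Psma8, a proteasome subunit of germ cells, scored 7.42 with siSeh1 at 61764 bp. Ubxn6, a cofactor of the p97 ATPase, scored 9.38, and its summit lay 122 bp from a siSeh1 and 49 bp from a siSCR summit. Pdp1, the phosphatase that activates pyruvate dehydrogenase, had the second highest score, 10.3, with a siSeh1 summit 65 bp and a siSCR summit 32 bp away. Immp1l, a peptidase of the inner mitochondrial membrane, scored 8.39, Atp5h, an ATP synthase subunit, 6.28 and Mrpl18, a mitochondrial ribosomal protein, 3.91, and each had a siSeh1 summit within 220 bp. Idh2 (3.93), Clpx (3.93) and Sdhc (3.08), which encode mitochondrial isocitrate dehydrogenase, a mitochondrial unfoldase and a succinate dehydrogenase subunit, had none within 7 kb. The genes named by role were chosen after their values were seen and say nothing about how common each role is in the set.

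Some promoters of the set were listed in siSeh1 under the name of the neighbouring gene. A siSeh1 summit lay within 1 kb of 24 of 428 member peaks (5.61%, 3.63 to 8.23%), and 23 of these siSeh1 summits carried the name of another gene, 19 protein-coding and 4 noncoding. That their names differ is fixed by the rule, which removes any gene named at a siSeh1 promoter peak. The gap between the paired summits had a median of 105.5 bp and ranged from 13 to 437 bp. The 24th, Pamr1, was named for the same gene in siSeh1 but at 1284 bp from the start, outside the window. Among the 25 genes of highest score, 11 were such cases. Because a peak is named for its nearest start site only, a promoter shared by a pair of genes can change its name when the summit shifts slightly.

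Kdm4d and Cwc15, a spliceosome component, gave one such pair. The iKO summit was at position 14500474 of chromosome 9, 8 bp after the Kdm4d start, and the siSeh1 summit at 14500559, 60 bp before the Cwc15 start. Dnajb11, a co-chaperone of BiP in the endoplasmic reticulum, paired with Tbccd1, with the iKO summit at 22857797 of chromosome 16, the siSeh1 summit at 22857742 and the siSCR summit at 22857755. Ubxn6 paired with Hdgfl2, with the iKO summit at 56079474 of chromosome 17, the siSeh1 summit at 56079596 and the siSCR summit at 56079523. Immp1l paired with Elp4, an Elongator subunit, with the iKO summit at 105904606 of chromosome 2 and the siSeh1 summit at 105904552. At Kdm4d and Immp1l no siSCR summit lay within 56 kb, while Dnajb11 and Ubxn6 had a siSCR summit within 49 bp as well. Further pairs included, iKO gene first, Maf1 and Sharpin, Sarnp and Ormdl2, Fahd1 and Hagh, Umad1 and Rpa3, Nsdhl and Cetn2, Mettl23 and Jmjd6, Mrpl18 and Tcp1, and Pxmp2 and Pole. Maf1 is a repressor of RNA polymerase III, Sarnp acts in mRNA export, Rpa3 and Pole act in DNA replication, and Tcp1 is a subunit of the chaperonin TRiC. Srpr, a subunit of the signal recognition particle receptor, paired with Foxred1 in both siSeh1 and siSCR, which with Pdp1, Ubxn6 and Dnajb11 made 4 members with a siSCR summit within 1 kb. No Ctrl summit lay within 1 kb of any member peak (0 of 428, upper bound of the exact interval 0.858%).

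The share with a siSeh1 summit within 1 kb was lower at lower scores, at 15 of 86 member peaks (17.4%, 10.1 to 27.1%) in the top quintile of the set, 6 of 86 (6.98%), 3 of 85 (3.53%), 0 of 86 and 0 of 85. Within 5 kb a siSeh1 summit was found for 15.2% of member peaks (11.9 to 18.9%), against 97.5% of the iKO promoter peaks also listed elsewhere, a contrast the rule fixes. The median distance from a member peak to the nearest siSeh1 summit was 28532 bp. Applying the exclusion by position (no summit of the 3 other lists within 1000 bp) in place of the gene name kept 409 genes, of which 399 were in the set.

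**Figure D3:**
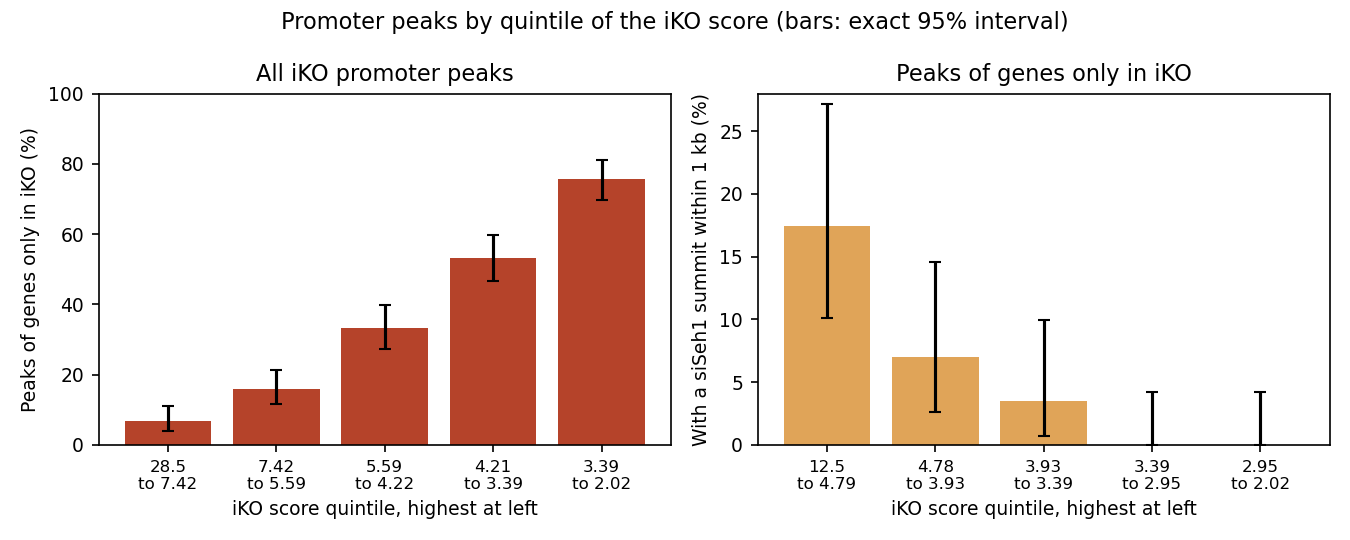
Left, share of iKO promoter peaks in percent that belong to genes only in iKO, by quintile of the score of all 1155 iKO promoter peaks; right, share in percent of the 428 peaks only in iKO with a siSeh1 summit within 1 kb, by quintile of their own score, with the highest scores at left in both panels. Bars with exact 95% intervals run from 6.93% to 75.8% on the left and from 17.4% to 0% on the right.

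Promoter sequence also divided the set by distance from the start. RefSeq promoters of 300 bases were available for 347 of the 423 genes (82.0%), behind 350 member peaks, and for 606 of the 715 iKO genes also listed elsewhere. The iKO summit fell inside this window at 149 member peaks. For the others, which include most members farther out, the sequence describes the start of the gene and not the bases under the peak. A promoter counted as CpG-rich with a GC share of at least 50% and an observed to expected CpG ratio of at least 0.6. CpG-rich promoters made up 63.0% (55.5 to 70.0%) of members within 200 bp and 26.6% (20.1 to 34.0%) of members farther out. The share was 87.7% (84.8 to 90.2%) of iKO promoters also listed elsewhere and 45.7% of 17491 protein-coding promoters. Median GC shares were 62.7%, 52.3%, 64% and 56.3% in the same order. Members near the start thus stood between the shared iKO promoters and the genome, and members farther out stood below the genome. The set as a whole was 45.4% CpG-rich, with an interval (40.1 to 50.8%) that held the share of all genes.

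Of 18 short motifs searched as exact letters on both strands, some followed this order and others did not. The CCAAT box (CCAAT) was present in 62.4% (54.9 to 69.5%) of members within 200 bp and 37.3% (30 to 45%) of members farther out, beside 84.4% (81.3 to 87.2%) of iKO promoters also listed elsewhere and 39.0% of all. The interval of the members farther out held the share of all promoters. The GC box (GGGCGG), a site of Sp1 family factors, was present in 69.1%, 37.9%, 80.7% and 46.3% of the same groups. A TATA box (TATAAA) went the other way, at 7.73%, 15.4%, 4.22% and 13.3%. The canonical E-box (CACGTG) was present in 4.42% (1.93 to 8.52%) of members within 200 bp, 2.37% of members farther out, 11.7% (9.26 to 14.5%) of iKO promoters also listed elsewhere and 7.90% of all. For this motif, members near the start lay at or below the genome and not between it and the shared promoters. The NRF1 site was present in 8.84%, 2.37%, 10.1% and 6.60%, and the AP-1 site (TGAGTCA) in 2.76%, 7.10%, 2.27% and 4.58%. The ETS site (CCGGAAGT) was present in 6.08%, 1.78%, 4.22% and 5.29%, and the YY1 site (AAGATGGC) in 1.1%, 2.37%, 4.87% and 3.22%, so that neither followed the order of the CCAAT box. CCAAT and GC boxes can occur in the same promoter, and the GC share of a group moves with the count of GC-rich letters.

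**Figure D4:**
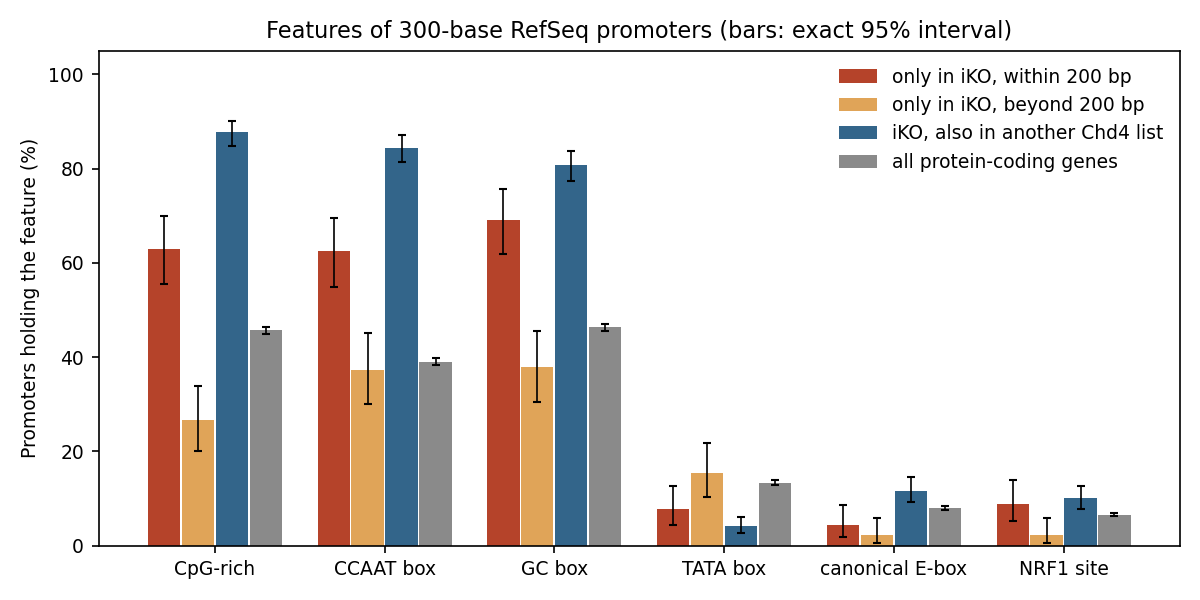
Share of 300-base RefSeq promoters in percent (vertical axis) that were CpG-rich or held each motif, for members only in iKO within 200 bp of the start, members beyond 200 bp, iKO promoters also in another Chd4 list and all protein-coding genes, with exact 95% intervals. CCAAT boxes were in 62.4%, 37.3%, 84.4% and 39.0% of the groups, TATA boxes in 7.73%, 15.4%, 4.22% and 13.3%.

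Seh1 was listed at few of these promoters, though at a larger share than among all genes, 4.49% against 2.35% for either list. This share changed with the window and the score minimum. A Seh1-flag summit lay within 240 bp of 0 of 428 member summits and of 1 of 727 summits also listed elsewhere. Promoter peaks of Seh1-flag were listed for 9 of 423 genes (2.13%), against 1.34% of all protein-coding genes. Those of Seh1 Ctrl were listed for 10 genes (2.36%), against 1.03%. Either list named 19 genes (4.49%, 2.73 to 6.93%), beside 2.35% of all genes and 2.10% (1.18 to 3.44%) of iKO genes also listed elsewhere. None of these 19 genes was in both Seh1 lists, and nothing is read from this at background shares of 1.34% and 1.03%. The closest Seh1-flag summit to a member's iKO summit at these genes was 414 bp away. The 9 flag genes were Cbln2, Eps15, Gpr1, Mad2l1, Piwil2, Prdx6b, Rprd1a, Slc30a5 and Vmn2r44. At Mad2l1 the iKO summit lay 49 bp after the start and the Seh1-flag summit, of score 4.33 in its own list, 524 bp before it. Eps15, an endocytic adaptor, had the highest flag score of the 9, 10.2, at 1077 bp from the iKO summit.

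In 5 genes an interval of the Seh1 Ctrl list held the iKO summit: Aldh3b2, Cyp21a1, Esrrb, Olfr56 and Ppp2r3a. At Ppp2r3a, a regulatory subunit of protein phosphatase PP2A, the iKO summit (score 4.74) was at position 101251859 of chromosome 9, 27 bp before the start, inside the interval from 101251783 to 101252022. At Esrrb, an orphan nuclear receptor of pluripotent cells, the iKO summit (4.62) was at 86361638 of chromosome 12, 521 bp after the start, inside the interval from 86361407 to 86361736. The other 5 genes were B3galt5, Chgb, Sptbn4, Gm5938 and 2210010C04Rik. A Seh1 Ctrl interval centre lay within 240 bp of 6 member summits (1.40%, 0.516 to 3.03%) and of 0 of 727 summits also listed elsewhere (upper bound 0.506%). Of these 6 member summits, 5 were farther than 200 bp from the start, whereas 80.2% of the 727 lay within 200 bp. The share over all iKO peaks was not computed for either count, so neither is read as particular to the set. All scores of the Seh1 Ctrl list are 0, so its intervals could not be ranked.

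Genes of the pathway and cell type lists were about as common in the set as among all genes. Of 984 distinct genes in 29 lists of pathways, complexes and cell types, 22 were members (2.24%), beside 1.93% of all protein-coding genes. The iKO promoter genes also listed elsewhere held 107 of the same 984 (10.9%), beside 3.27% of all protein-coding genes. There were 13 lists with no member and 12 with 1. These lists are short, and at a background of 1.93% a list with no member is not a result about the set. Among those with none were the NuRD subunits (0 of 15), nucleoporins (0 of 31), remodellers and histone modifiers (0 of 60), DNA replication and repair (0 of 40) and neurogenic and neuronal factors (0 of 30). Endoplasmic reticulum chaperones and the unfolded protein response had 1 member of 32, Dnajb11, beside 16 iKO genes also listed elsewhere. Sterol and fatty acid synthesis had 1 of 38, Nsdhl, a sterol dehydrogenase (6.49, with a siSeh1 summit 374 bp away), beside 13. Cell cycle and mitosis had Mad2l1 alone of 40, beside 11. Further list members were Sesn1, a p53 target (4.74), Wdr59, a GATOR subunit (4.74), Rpl10, a ribosomal protein (4.12), Snrpd1, a core spliceosomal protein (4.12), Hsp90aa1, a heat shock chaperone (3.39), Eif2b2, a translation initiation factor subunit (3.11), and Tmed2, a cargo receptor of the secretory pathway (2.47). Fbxw7, the substrate receptor of a ubiquitin ligase, scored 2.47 and joined Ube2k in the proteasome and ubiquitin list. Markers of astrocytes (0 of 14), oligodendrocytes (0 of 14) and microglia and endothelium (0 of 14) had no member.

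**Figure D5:**
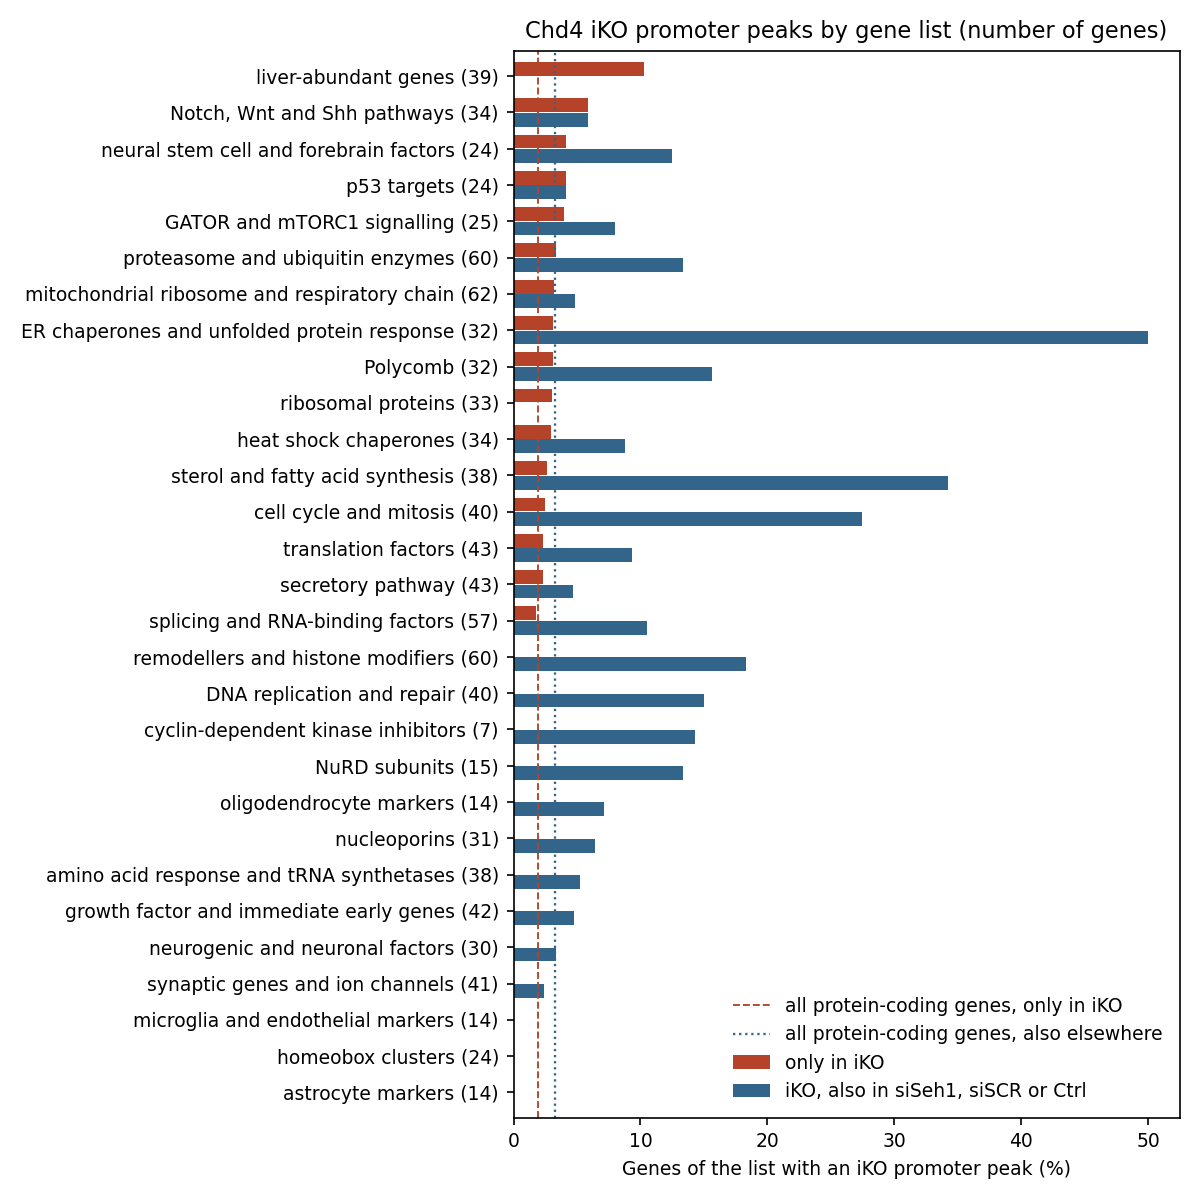
Share of each gene list in percent (horizontal axis) with an iKO promoter peak, as genes only in iKO (upper bar of each pair) and genes also in siSeh1, siSCR or Ctrl (lower bar), with the size of the list in brackets. Vertical lines mark all protein-coding genes, 1.93% only in iKO and 3.27% also elsewhere; liver-abundant genes have the highest share only in iKO, 10.3%.

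Some members have known roles in development, with scores from 2.06 to 6.34 among those named here, which were chosen after their values were seen. Notch2, a Notch receptor, had a score of 2.71 with its summit 35 bp before the start, and Sufu, the suppressor of Gli factors in Shh signalling, had 5.59 at 69 bp after it, with a siSeh1 summit 1752 bp away. Emx1, a cortical homeobox factor and the single member among 24 neural stem cell and forebrain factors, scored 3.17 at 167 bp before the start. Gas1, a Shh co-receptor, scored 6.34 at 88 bp after the start, and Fzd4, a Wnt receptor, 4.74 with a siSeh1 summit 385 bp away named for Tmem135. Further transcription factors with a role in development included Olig3 (4.58), Tbx5 (3.39), Helt (3.17), Foxn4 (3.17) and Pou1f1 (2.06). Their nearest siSeh1 summits were 63627, 38919, 27094, 44903 and 65968 bp away. Of these 5, Helt and Pou1f1 had the summit within 200 bp of the start.

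Chemoreceptor genes, best known from the sensory neurons of the nose, had most of their summits farther than 200 bp from the start. Olfactory receptor genes were 25 of 423 members (5.91%, 3.86 to 8.60%), beside 5.07% of all protein-coding genes, 0 of 715 iKO genes also listed elsewhere and 1.21% of genes listed only in siSeh1. Vomeronasal receptor genes were 6 (1.42%), beside 1.62% of all genes. Of the 31 receptor peaks, 7 were within 200 bp of the start and 15 in an exon, the median score was 3.39 (2.08 to 5.31), and 0 had a siSeh1 summit within 1 kb. Both families were therefore present at about their share of the genome. Olfactory receptor genes are short and often have 1 coding exon, so a window around their start covers much of the gene.

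Of 39 liver-abundant genes 4 were members (10.3%), beside 1.93% of all protein-coding genes. The 4 were Ahsg, the fetuin A gene (5.59), Tat, tyrosine aminotransferase (4.87), Cyp2c29, a cytochrome P450 (3.34), and Fbp1, a gluconeogenic phosphatase (2.86). Their summits lay 226 to 781 bp after the start, in exons at Ahsg and Fbp1 and in introns at Tat and Cyp2c29, and none was in the promoter-TSS class. The siSeh1, siSCR and Ctrl lists had 0 of the 39 genes at promoters. Over whole genes, 22 of the 39 (56.4%, 39.6 to 72.2%) had an iKO peak in an exon or UTR, against 2 in siSeh1, 0 in siSCR and 0 in Ctrl, and beside 2.56% of all protein-coding genes in iKO. Of the 62 exon and UTR peaks of the set, only those of Ahsg and Fbp1 came from this list. Any link between the whole-gene values and the exon and UTR share of the set was not tested. Kng1, another gene of liver outside the list, scored 5.41 in an exon at 289 bp, while Gpx1, abundant in liver and blood, had both of its peaks in an exon or UTR. Members of other tissues had such summits too. The keratin-associated genes Krtap1-4, Krtap8-1 and Krtap9-3 had theirs in exons, and Tcap in a 3′ UTR. These genes outside the list were chosen after their values were seen, and nothing about liver is read from them.

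There were 5 genes with more than 1 peak in the window: Gpx1, Aldh3b2, Gm13103, Piwil2 and Zfp775. At the edge of the window, Gm13103 (994 bp, score 3.93), Krt26 (991 bp, 3.17) and Kdm4c (989 bp, 3.93) were the farthest peaks inside it, and Eid3 (1004 bp, 3.55), Gm20767 (1009 bp, 3.93) and Nr2f2 (1010 bp, 3.93) the nearest outside it. The edge thus passes through the broad group and separates peaks of like score. The lowest scores in the set were those of Tas2r136 (2.02), a taste receptor gene, and Pou1f1 (2.06), a pituitary factor. Next came Bmp7, a growth factor, tied at 2.08 with Desi2, Nxn, Olfr959 and Ucp3. The score of Tas2r136 was the lowest in the whole iKO list and was shared with other iKO peaks.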

How the data were processed

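Peak lists of 6 ChIP-seq libraries of mouse neural stem cells were used, 4 of Chd4 and 2 of Seh1, with 1 library per group. The submitters' processing notes name Bowtie2 and HOMER without versions or roles. The lists are HOMER annotations on mm10 per the file headers, although the notes name human builds. Neither the peak caller nor its threshold or any pooling is given in the sources used here. The authors deposited a peak score for each summit in 5 lists, on a scale that is not stated, and 0 throughout in Seh1 Ctrl, whose list holds intervals of 240 to 1296 bp.

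From these lists, peaks within 1000 bp of a protein-coding start were matched between the Chd4 lists by gene name. Names follow the nearest start site in the deposited annotation. Distances to other lists were taken from the summit (interval centre in Seh1 Ctrl). Shares carry exact Clopper-Pearson 95% intervals and medians order-statistic 95% intervals, which cover counting error only, since depth is unknown. RefSeq tables of GRCm38.p6 gave the 21896 background genes and the promoter sequences, and 421 of 423 member genes matched by identifier. Genes named were the 25 of highest score, members of the gene lists, those with a Seh1 promoter peak, those at the lowest scores and at the edge of the window, those with several peaks, Seh1l and Chd4. Genes named for a role, and the names of paired genes, were chosen after their values were seen. The members and lists were chosen with earlier results of these data known. Python 3.11.15, numpy 2.4.6, pandas 2.3.3, scipy 1.17.1 and matplotlib 3.10.9 were used, and the code was tested on simulated lists. Alternatives changed the window, the score minimum, the annotation class, the excluding lists and the matching by name.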

Additional observations from a re-analysis of the deposited data

How the results depend on the processing

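The set had 423 genes, and 648 with a window of 2000 bp, 69 with a score of at least 5, 279 in the promoter-TSS class alone, 1138 when Ctrl alone excluded genes, 899 without siSeh1 as an excluding list and 214 with the iKO peak within 200 bp, a setting chosen after seeing the data. The other alternatives gave 318 to 497 genes. The share with a Seh1 promoter peak, 4.49%, was 2.20% at 500 bp, 6.94% at 2000 bp and 0% at a score of at least 5. A score of at least 5 also gave 26.1% with a siSeh1 summit within 5 kb, 78.3% in the promoter-TSS class, 71.0% within 200 bp of the start, a median GC share of 61%, 72.4% with a CCAAT box, 65.5% CpG-rich and 1 liver gene. The promoter-TSS share was 74.2% at 500 bp and 41.2% at 2000 bp. Members in the promoter-TSS class had a median GC share of 60.8%, 55.5% CpG-rich promoters and 0 liver genes. Liver genes numbered 2 at 500 bp and 7 at 2000 bp. The alternatives for the share within 200 bp, the CCAAT, CpG and liver values were chosen after seeing the data. In all, 18 of the recomputed values stayed within their interval or within 1.5 times the count and 23 did not; the cause was not tested. No paired analysis was possible because each group had 1 library. Unknown depth limits every absence from a list.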

Other observations

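Member peaks were spread over 20 chromosomes and 1 unlocalized scaffold, with the most on chromosome 2 (44 peaks) and chromosome 7 (41 peaks). Predicted genes with Gm or Rik names were 6.38% of member genes (4.25 to 9.15%), beside 1.26% of iKO promoter genes also listed elsewhere and 7.99% of all protein-coding genes. Solute carriers were 2.13% of members and Zfp zinc finger genes 1.89%, beside 1.71% and 1.81% of all protein-coding genes. A further iKO peak in an exon or UTR of the same gene was listed for 6 of 423 member genes (1.42%, 0.522 to 3.06%). The same held for 12 of 715 iKO promoter genes also listed elsewhere (1.68%). Any iKO peak in an exon or UTR, a wider count, was listed for 2.56% of all protein-coding genes.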
